A study of Mus musculus with 3 samples.

Results

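Cdkn1a, Gdf15, Plk2, Plk3, Mdm2, Btg2, Gadd45a, Gadd45b, Gadd45g and Ccng1 are 10 growth-arrest and stress genes, most of them known targets of the tumour suppressor p53, and they were taken by name from the 55536 Ensembl genes of the deposited gene tables. All 10 symbols were found, each with 1 gene identifier. They were chosen by function with their levels in these libraries (TPM, the length-corrected share of all transcripts, and expected read counts) already known, so those levels are a description and were not tested. RNA sequencing was done on the cytosolic RNA of mouse bone marrow-derived macrophages, primary phagocytes grown from marrow precursors, in 1 group of 3 biological replicates. The cells were of strain C57BL/6J. They received 100 ng/ml Lipid A for 12 h, spent the next 12 h without it, and then met 100 ng/ml again for 50 min before harvest. Lipid A is the membrane anchor of bacterial lipopolysaccharide and the ligand of Toll-like receptor 4. Sex and age were not collected. The labels give separate samples but 1 donor entry at the level of the strain, and do not say that the cultures came from separate animals, so p-values here measure only the spread between these samples. All 3 libraries had both exposures, and with no unstimulated or singly stimulated library here, the levels do not tell which of these RNAs had been induced.

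p53 is a transcription factor that is held at a low level by the ubiquitin ligase Mdm2, itself a p53 target, and that on DNA damage or other stress drives genes which stop the cell cycle or help repair. Several of the same genes are also early response genes that growth factors, cytokines and inflammatory stimuli switch on within minutes, through routes that do not need p53. In macrophages, Cdkn1a is known for the growth arrest that accompanies activation, and the Gadd45 proteins for feeding stress signals into the p38 and JNK kinases. Gdf15 is a secreted hormone of the TGF-beta superfamily that rises with cell stress and acts on appetite through the receptor Gfral in the hindbrain.

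Expected counts over genes were 47972062, 54409436 and 53491957 in replicates 1, 2 and 3. The 7SL RNAs Rn7s1 and Rn7s2 took 55.0%, 64.0% and 56.6% of all TPM, and protein-coding genes held 333012, 260691 and 370000 TPM. In TPM as deposited, 80.0% of all genes tested were lowest in replicate 2. Replicates were therefore compared in CPM, read counts relative to library sizes scaled by the trimmed mean of M-values (TMM), and TPM was used to compare genes, since it is divided by transcript length. The macrophage markers were present as labelled: 10 of 10 (Lyz2, Adgre1, Csf1r and others) reached 1 TPM in every replicate, with a summed level of 6400 to 8365 TPM. Of the neutrophil markers, 2 of 8 (S100a8 and S100a9) did so, with a sum of 8.36 to 11.2 TPM and with Ly6g and Retnlg at 0. Of the endothelial markers, 1 of 4 (Vwf) did so, with a sum of 5.78, 2.86 and 7.05 TPM in replicates 1, 2 and 3. No T and NK cell, B cell, dendritic cell, fibroblast, erythroid or megakaryocyte marker did so, and each of those lists summed to at most 0.38 TPM. In bulk samples, fewer cells of a type and less RNA per cell cannot be told apart.

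The start regions of the members are shown because the p53 and stress-response routes are thought to act through them. RefSeq start sites on GRCm38.p6, the mm10 build, gave 12 promoters for the 10 members, with Cdkn1a and Gdf15 having 2 each. Each was searched from 250 bases before to 50 after the start, on both strands. A pair of p53 half-sites with at most 13 bases between them was found in 0.0731% of 32851 RefSeq promoters, 24 in number, and among the members only at the upstream start of Cdkn1a. The cAMP response element (CRE), TGACGTCA, was found in 1.79% of all promoters and in those of Plk2 and Btg2. The bases before each of these 3 starts are given 5′ to 3′ on the strand of the gene, with the half-sites or the CRE in capitals, from chr17:29090729-29090978 (plus strand), chr13:110394794-110395043 (plus strand) and chr1:134079156-134079405 (minus strand).
Cdkn1a, upstream start: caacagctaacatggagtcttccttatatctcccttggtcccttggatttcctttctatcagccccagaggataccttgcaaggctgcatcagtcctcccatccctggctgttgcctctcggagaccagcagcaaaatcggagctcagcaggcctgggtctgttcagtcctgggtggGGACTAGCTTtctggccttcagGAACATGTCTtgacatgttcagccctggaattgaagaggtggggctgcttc
Plk2: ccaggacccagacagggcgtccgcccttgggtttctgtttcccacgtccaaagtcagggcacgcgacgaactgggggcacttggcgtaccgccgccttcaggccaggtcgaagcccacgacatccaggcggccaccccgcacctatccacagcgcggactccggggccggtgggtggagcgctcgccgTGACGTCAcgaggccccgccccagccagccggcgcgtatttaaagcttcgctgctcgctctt
Btg2: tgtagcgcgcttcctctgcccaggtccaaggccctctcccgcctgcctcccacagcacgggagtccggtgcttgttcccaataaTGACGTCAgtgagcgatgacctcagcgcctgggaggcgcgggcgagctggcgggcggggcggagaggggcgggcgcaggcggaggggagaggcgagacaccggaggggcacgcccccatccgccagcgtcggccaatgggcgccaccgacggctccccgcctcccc

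In the Cdkn1a sequence the half-sites lay at positions -73 to -64 and -51 to -42 from that start. The CRE lay at -62 to -55 in Plk2 and at -166 to -159 in Btg2. A p53 half-site on its own was a common feature, in 8.36% of all promoters. Besides Cdkn1a, it was found once each at Gadd45a (GGGCTAGCCC, -40 to -31), Mdm2 (GAACTTGCCT, -186 to -177) and Ccng1 (GGGCAAGCCT, -185 to -176), so that 4 of the 12 promoters held one. The AP-1 site TGANTCA was found in 7.81% of all promoters, the CArG box in 1.63% and the NF-kB consensus in 4.51%, and none of the 12 windows held any of them. These are matches of letters in a short window. They do not show binding, and sites outside the window were not searched.

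AU-rich stretches in the 3′ UTR are shown because the pentamer ATTTA is the core of elements through which short-lived mRNAs are bound by decay factors such as tristetraprolin. The leading transcripts of 8230 expressed protein-coding genes held a median of 1 ATTTA, or 1.35 per kb, and 68.2% held at least 1. Of the members 8 of 10 held at least 1, with a median of 3.5 and of 3.34 per kb. Gdf15 held 5 in a 3′ UTR of only 149 bases, a density of 33.6 per kb that was above that of 99.99% of the transcripts. Plk3 held 4 in 332 bases (12.0 per kb, above 99.5%), and Mdm2 held 8 in 1335 bases (5.99 per kb, above 95.6%). The densest windows of these 3 genes, all on minus strands, are given 5′ to 3′ with each ATTTA in capitals, from mm10 chr8:70629482-70629508, chr10:117689814-117689840 and chr4:117128710-117128736.
Gdf15: caaggatgctATTTAtatttgtATTTA
Mdm2: taataataagaacATTTAATTTATTTA
Plk3: ttATTTAttaacagacATTTATTTAtt

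Ccng1 held 8 copies of ATTTA, Btg2 5, Cdkn1a 3, and Plk2 and Gadd45a 2 each. Gadd45b and Gadd45g, with 3′ UTRs of 558 and 489 bases, held none. The longer form TTATTTATT was found in Mdm2, Plk3 and Plk2, and in 6.99% of all the transcripts searched. Of the 4 genes that stood highest in the macrophages, Gdf15 was the densest in ATTTA and Gadd45b was without it.

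All 10 genes reached 1 TPM in every replicate, against 41.1% of protein-coding genes (9059 of 22028), a share that cannot be read as a result, since the genes were chosen with their levels known. Gdf15, Cdkn1a, Gadd45b and Plk2 formed the top at means of 154 to 210 TPM, Mdm2, Btg2 and Ccng1 followed at 47.6 to 64.5 TPM, Gadd45a stood at 22.2 TPM, and Gadd45g and Plk3 were low at 2.61 and 1.56 TPM. The median expressed protein-coding gene had 9.12 ± 1.61 TPM (SD, n = 3), so 8 members were above it and 2 below it.

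**Figure D1:**
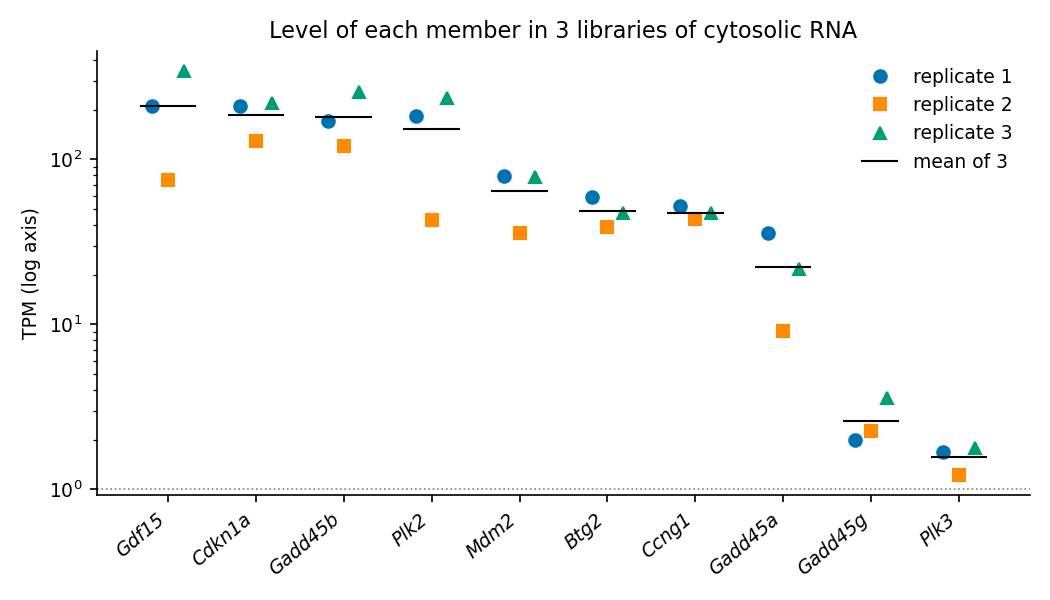
Level of each of the 10 genes in TPM on a log axis, with 1 point for each of the 3 replicates and a bar at their mean. The dotted line marks 1 TPM. Gdf15, Cdkn1a, Gadd45b and Plk2 have means of 154 to 210 TPM, and Gadd45g and Plk3 stay below 4 TPM in every replicate.

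Cdkn1a encodes p21, the inhibitor of cyclin-dependent kinases through which p53 halts cells before S phase (mm10 chr17:29090976-29100727). Its levels were 210, 130 and 221 TPM in replicates 1, 2 and 3, a mean of 187 ± 49.6 TPM (SD, n = 3), above 98.9% of protein-coding genes. In CPM the replicates were at 498, 410 and 509, so that the highest was 1.24-fold the lowest, a ratio larger than that of 53% of all genes tested. Replicate 2 was the lowest on both scales, but in CPM only Plk3 among the members had a smaller ratio. Reads of an overlapping antisense gene, AC167363.2, were counted at 369, 139 and 85.9, against 24980, 22240 and 26119 for Cdkn1a. How the counting treated strand is not given in the sources used here.

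Mdm2, the ubiquitin ligase that restrains p53 (chr10:117688875-117710758), had 79.6, 35.7 and 78.2 TPM, a mean of 64.5 ± 24.9. In CPM it stood at 249, 159 and 268, with replicate 2 below both others and a ratio of 1.69. Within each library Cdkn1a was above Mdm2, by 1.39, 1.83 and 1.48 on the log2(TPM + 1) scale (mean 1.57 ± 0.23 SD). Ccng1 encodes cyclin G1, a p53 target that works with protein phosphatase 2A on Mdm2 (chr11:40748552-40755311). It had 52.5, 43.2 and 47.1 TPM (47.6 ± 4.67), the narrowest relative spread in TPM among the 10 genes. In CPM, with 246, 267 and 212, it was highest in replicate 2, which no other member was. Cdkn1a exceeded Ccng1 by 1.98, 1.56 and 2.20 on the log2(TPM + 1) scale (mean 1.92 ± 0.32 SD). Btg2 is an antiproliferative protein that recruits the CCR4-NOT deadenylase and an early response gene (chr1:134075170-134079120). Its levels were 59.4, 38.7 and 47.3 TPM (48.4 ± 10.4), or 213, 183 and 163 CPM. In CPM the highest value was in replicate 1 and the lowest in replicate 3, unlike Cdkn1a and Mdm2.

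The Gadd45 genes encode small acidic nuclear and cytoplasmic proteins that bind the kinase Map3k4, PCNA and the Cdk1-cyclin B1 complex. Proteins translated from the annotated coding sequences were of like size, 165, 160 and 159 residues for Gadd45a, Gadd45b and Gadd45g, and each pair was identical at 54.0 to 54.8% of aligned positions. Their RNA levels were far apart. Gadd45b, a known NF-kB target (chr10:80930073-80932204), had 171, 121 and 255 TPM (182 ± 67.7), or 254, 239 and 373 CPM, with replicate 3 above the other 2. Gadd45a, the member most often named with p53 (chr6:67035096-67037457), had 36.0, 9.09 and 21.6 TPM (22.2 ± 13.4), or 48.8, 16.5 and 29.7 CPM. Its replicate 1 was the highest and replicate 2 the lowest, a ratio of 2.91. Gadd45g (chr13:51846678-51848468) had 1.98, 2.26 and 3.58 TPM (2.61 ± 0.854), or 2.39, 3.63 and 4.25 CPM, from 120, 197 and 218 expected counts. The deposited credible intervals of its TPM were 1.64 to 2.35, 1.96 to 2.59 and 3.11 to 4.05 in replicates 1, 2 and 3. Replicate 3 was the highest in TPM and in CPM, but in CPM replicates 2 and 3 lay close together and replicate 1 was the low one. Gadd45b exceeded Gadd45a by 2.22, 3.59 and 3.50 (mean 3.10 ± 0.77 SD) and Gadd45g by 5.85, 5.22 and 5.80 (mean 5.62 ± 0.35 SD) on the log2(TPM + 1) scale. The ranges of the 3 genes did not overlap. An antisense gene that overlaps Gadd45a, E230016M11Rik, had 44.0, 18.5 and 12.8 counts, against 2447, 894 and 1522 for Gadd45a.

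Plk2 and Plk3 are polo-like kinases of the stress and early response type, unlike the mitotic kinase Plk1. Their translated proteins, of 682 and 648 residues, were identical at 49.0% of aligned positions. Plk2 (chr13:110395046-110400844) had 183, 42.7 and 236 TPM (154 ± 99.8), or 643, 203 and 827 CPM. Its replicates 1 and 3 were high and replicate 2 was low, with a ratio of 4.06 in CPM, larger than in 99.1% of all genes tested. Plk3 (chr4:117128655-117133963) had 1.68, 1.22 and 1.79 TPM (1.56 ± 0.302), or 5.17, 4.95 and 5.30 CPM, from 259, 269 and 272 expected counts. Its replicates were nearly level, with a ratio of 1.06 that was larger than in only 8.20% of genes. Plk3 was below Plk2 in every replicate, by -6.10, -4.30 and -6.41 on the log2(TPM + 1) scale (mean -5.60 ± 1.14 SD). The gene Tctex1d4, which overlaps the end of Plk3 on the other strand, had 40, 45 and 44 counts.

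Gdf15 (chr8:70629393-70632456) had the highest mean of the members, with 210, 75.4 and 344 TPM (210 ± 134), or 352, 168 and 565 CPM. Replicate 3 was high, replicate 2 low and replicate 1 between them, with a ratio of 3.36 in CPM, larger than in 98.5% of all genes tested. Its place at the top rested on replicate 3, since Cdkn1a was higher than Gdf15 in replicates 1 and 2. Without replicate 3 the mean of Gdf15 was 143 TPM, below Cdkn1a (170.0) and Gadd45b (146). The protein-coding genes whose levels lay closest to those of Gdf15, by Euclidean distance over log2(TPM + 1) in the 3 replicates, were Rasgef1b (distance 0.708), Tnfaip3 (0.759) and Nfkbiz (0.774). Rasgef1b, a guanine exchange factor known from Toll-like receptor responses, had 218, 98.0 and 227 TPM. Tnfaip3, which encodes the ubiquitin editor A20, had 281, 112 and 283 TPM, and Nfkbiz, which encodes the nuclear protein IkB-zeta, had 225, 98.4 and 216 TPM. All 3 were lowest in replicate 2 in TPM, as 80.0% of genes were.

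In the order of mean TPM (Gdf15, Cdkn1a, Gadd45b, Plk2, Mdm2, Btg2, Ccng1, Gadd45a, Gadd45g, Plk3), only 3 of the 9 neighbouring pairs had replicate ranges that did not overlap. These were Ccng1 above Gadd45a, Gadd45a above Gadd45g, and Gadd45g above Plk3. The last gap was small, and in replicate 1 the deposited credible intervals of the pair, 1.64 to 2.35 TPM for Gadd45g and 1.49 to 1.89 for Plk3, overlapped. The 7 genes from Gdf15 to Ccng1 formed a series in which no neighbours were separated by range. Ranges pool the 3 libraries, and in TPM 80.0% of all genes tested were lowest in replicate 2. Within each library Plk2 was above Mdm2, with 183 against 79.6, 42.7 against 35.7 and 236 against 78.2 TPM in replicates 1, 2 and 3. Every other neighbouring pair among the 7 did not keep the same order in all 3 replicates. Without replicate 2, 5 pairs were separated. In gene sums of the second transcript table, whose TPM total is shared out differently, 1 pair was, and 3 were again after that table was rescaled to protein-coding genes.

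Replicates of 9 of the 10 genes differed by more than counting error (Poisson heterogeneity chi-square with 2 degrees of freedom, Benjamini-Hochberg adjustment over 13827 genes), but so did 70.0% of all genes tested, and the members' count is to be read against that. The chi-square was 19788 for Plk2, 11645 for Gdf15, 1952 for Gadd45b and 1623 for Mdm2, with adjusted p-values too small to be written as a number. It was 880 for Gadd45a (adjusted p = 2.71e-190), 675 for Cdkn1a (5.53e-146), 338 for Ccng1 (5.32e-73), 335 for Btg2 (2.02e-72) and 26.3 for Gadd45g (4.98e-06). Plk3 did not pass, with a chi-square of 0.643 and an adjusted p of 0.755. By size, 3 of the 10 genes, Plk2, Gdf15 and Gadd45a, differed at least 2-fold between replicates, as did 6.86% of all genes. The median ratio of highest to lowest replicate was 1.60 over the members and 1.23 over all genes tested, and the median biological coefficient of variation (edgeR) was 0.204 against 0.164. It was 0.438 for Plk2, 0.383 for Gdf15 and 0.344 for Gadd45a, and between 0.144 and 0.281 for the other 7.

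**Figure D2:**
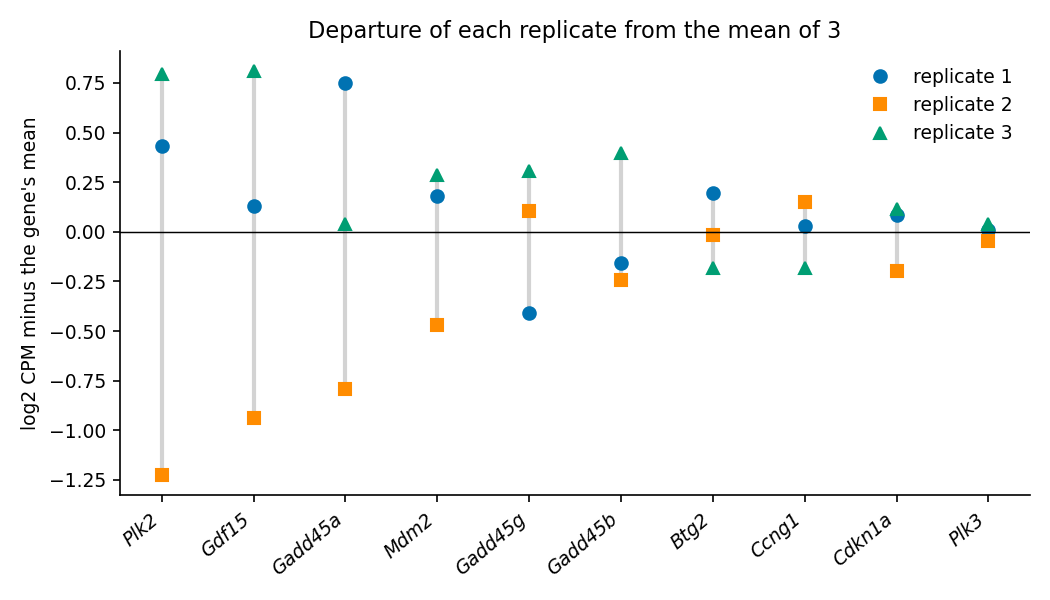
Departure of each replicate from the mean of the 3, as log2(CPM + 0.5) on TMM library sizes, for each gene in order of its spread. Points are replicates and grey lines join the highest to the lowest. Replicate 2 (squares) is the lowest point for 7 genes, down to -1.23 for Plk2, while Btg2, Ccng1, Cdkn1a and Plk3 stay within 0.20 of their means.

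Replicate 2 was the lowest for 7 of the 10 genes (Cdkn1a, Gdf15, Plk2, Plk3, Mdm2, Gadd45a and Gadd45b), against 31.0% of all genes tested. Plk3 is among the 7 by a departure of only -0.05 on the log2 scale, and did not pass the test above. Replicate 3 was the highest for 7 genes (Cdkn1a, Gdf15, Plk2, Plk3, Mdm2, Gadd45b and Gadd45g), against 34.2% of all genes. With library sizes taken as total counts, or with TPM rescaled to protein-coding genes, replicate 3 was the highest for 4 members. Of all genes, 22.6% and 24.1% were highest in replicate 3 on these scales, in that order. Cdkn1a, Plk3 and Mdm2 were then highest in replicate 1, as were 48.6% and 46.3% of all genes. The count of 7 lowest in replicate 2 was the same with DESeq2 size factors, total counts and rescaled TPM. Of the other 3 genes, Btg2 and Ccng1 were lowest in replicate 3 and Gadd45g in replicate 1. In TPM the summed endothelial markers were also lowest in replicate 2, as were 80.0% of all genes tested. Most of that sum was Vwf, at 4.89, 1.70 and 5.43 TPM, or 27.1, 13.1 and 30.7 CPM. Of the other 3 markers, Pecam1 was highest in replicate 2 (2.31, 5.27 and 2.67 CPM). Cdh5 was lowest in replicate 2 in TPM (0.34, 0.21 and 0.96) but in replicate 1 in CPM (0.718, 0.957 and 1.68). Tek was listed at 0.01 TPM in replicate 1 and at 0 in the others. The part of these markers in the members' spread was not tested. The 10 genes summed to 1005, 499 and 1254 TPM.

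Most members were read from 1 transcript. Gadd45g-201 and Ccng1-201 held 100% of their genes' TPM in the first transcript table. For Btg2 only Btg2-201 is annotated, so its share of 100% is fixed by the annotation. Cdkn1a-201 held 97.2%, 98.0% and 98.2% of Cdkn1a, Plk3-201 97.6%, 98.4% and 100% of Plk3, and Gadd45b-201 96.9%, 98.3% and 98.9% of Gadd45b. Plk2-201 held 93.2%, 97.0% and 98.5% of Plk2, and Gadd45a-201 90.4%, 92.9% and 97.2% of Gadd45a. In the second table Gadd45a-201 held 79.2%, 94.0% and 93.8%. Mean shares there were 96.2% for Cdkn1a-201, 96.1% for Plk3-201, 95.8% for Gadd45b-201 and 94.8% for Plk2-201. Cdkn1a RNA came almost wholly from the main start, with 97.9 ± 0.632% (SD, n = 3). Transcripts from the upstream start, whose promoter holds the paired p53 half-sites printed above, took 0.940 ± 0.227% in the first table and 1.72 ± 0.0392% in the second. The upstream start (chr17, 29090979) precedes the main one (29093769), so this pair of sites lies upstream of both.

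Gdf15 had transcripts from both of its annotated starts. Gdf15-202, from the upstream start, held 86.0%, 85.4% and 82.1% (84.5 ± 2.10%), and Gdf15-201, from the downstream one, the rest (15.5 ± 2.10%). Both encode proteins of the same length in the annotation, with 909 coding bases each. The second table gave 80.5 ± 1.99% to Gdf15-202. The split was much steadier between replicates than the level of Gdf15 itself.

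Mdm2 was the most divided of the genes, over 9 transcripts. Mdm2-201, the full-length coding form, held 44.5%, 56.5% and 69.6% in the first table and 45.0%, 63.7% and 74.3% in the second. It was lowest in replicate 1 and highest in replicate 3 in both. Mdm2-209, which the annotation classes as a target of nonsense-mediated decay, held 25.2%, 20.5% and 14.2% in the first table but 5.10%, 1.81% and 2.24% in the second. The posterior SD of its count was 196, 172 and 222 around 3639, 1902 and 1988 reads, so the difference between the tables was larger than the uncertainty the first one states. Mdm2 is known for a promoter in its first intron that answers to p53. Transcripts that start at the second exon took 26.1 ± 4.79% in the first table and 11.7 ± 2.62% in the second, and those that start at the first exon took 68.6 ± 7.47% and 77.4 ± 5.55%. The share from the second exon moved with Mdm2-209, which starts there, and so depended on the table.

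**Figure D3:**
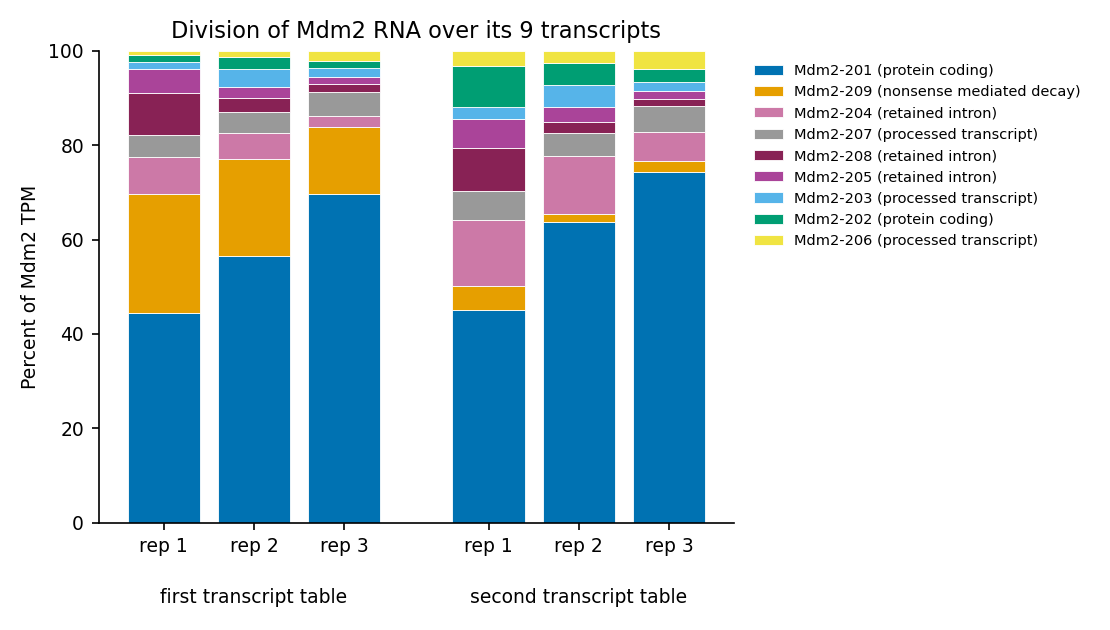
Percent of Mdm2 TPM on each of its 9 transcripts, as stacked bars for each replicate in the first (left) and second (right) transcript table, coloured by transcript with its annotated class. Mdm2-201 grows from 44.5% in replicate 1 to 69.6% in replicate 3 in the first table, and Mdm2-209 is several times smaller in the second table.

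Intron-retaining transcripts are annotated for Mdm2, Gadd45a, Plk2, Gadd45b and Gadd45g. In the first table they held 21.7%, 10.9% and 5.69% of Mdm2, 9.62%, 5.71% and 2.82% of Gadd45a, 6.75%, 3.02% and 1.47% of Plk2, and 1.79%, 1.24% and 0.593% of Gadd45b, with none of Gadd45g. Over 5719 expressed protein-coding genes that have such a transcript the median share was 2.99%, 1.83% and 0.981%. Mdm2 was above that median in every replicate, and Gadd45b was below it. All 4 genes with a share above 0 had it highest in replicate 1, as 66.1% of genes did, and all 4 fell in the order of replicates 1, 2 and 3, as 49.1% did. In the second table the shares were 29.3%, 17.7% and 9.59% for Mdm2, 20.8%, 5.99% and 6.16% for Gadd45a, 9.83%, 4.30% and 1.41% for Plk2, and 5.0%, 2.48% and 1.10% for Gadd45b. There 3 of the 5 genes with a share above 0 fell in that order, as 61.8% of genes did. The nuclear RNAs Malat1 (6066, 3077 and 1408 CPM) and Neat1 (647, 247 and 126 CPM) were in the same order of replicates, and their part in these shares was not tested.

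**Figure D4:**
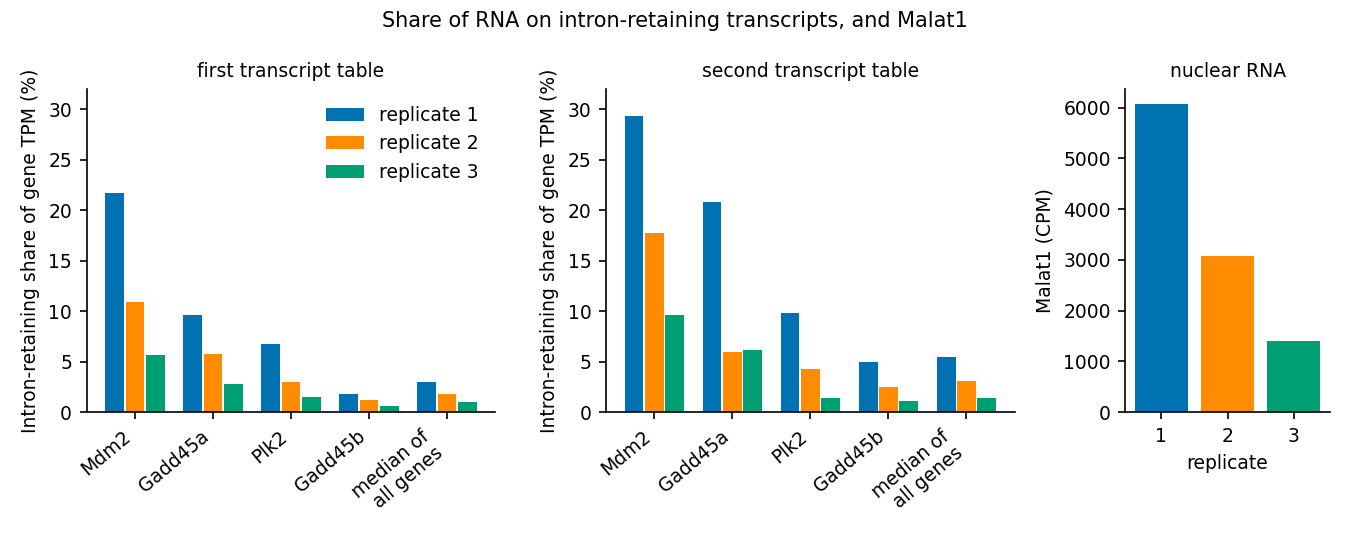
Percent of each gene's TPM on intron-retaining transcripts in replicates 1, 2 and 3, in the first (left) and second (middle) transcript table, with the median of expressed protein-coding genes that have such a transcript, and Malat1 in CPM (right). Mdm2 has the highest share, 21.7% in replicate 1 of the first table, and Malat1 is at 6066, 3077 and 1408 CPM.

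Most of the other listed p53 genes were present, largely at lower levels than the 10 genes, which had been chosen with theirs known. Of 16 core regulators, 12 reached 1 TPM in every replicate, with a median of 3.36 ± 0.163 TPM (SD, n = 3), against 57.6 ± 15.1 for the members. The share to set beside this and the other companion counts is 41.1% of all protein-coding genes. Mdm2 was the highest of them, and the coactivator Ep300 followed at 25.8 ± 3.65 TPM. The p53 gene Trp53, named here outside the rule after its values were seen, had 15.3, 10.8 and 16.4 TPM, and its relatives Trp63 and Trp73 were listed at 0 TPM. Trp53 differed 1.11-fold between replicates in CPM, against a median of 1.60 for the members and 1.23 for all genes tested. It too was lowest in replicate 2 and highest in replicate 3 (Poisson heterogeneity, adjusted p = 0.0138). Its part in the members' spread was not tested. Of 30 other p53 targets 22 reached 1 TPM, with a median of 3.50 ± 0.448 TPM. The highest were Rps27l, a ribosomal protein homologue (68.8 ± 12.7), the apoptosis effector Bax (50.4 ± 8.0), the BH3-only gene Pmaip1 (21.1 ± 6.20) and the sestrin Sesn1 (20.7 ± 2.31). The adhesion gene Perp was listed at 0.01 TPM in replicate 1 and at 0 in the others. Of the 29 targets tested, 22 differed beyond counting error, against 70.0% of all genes, and none differed by 2-fold, against 6.86%. In CPM 10 of the 29 were lowest in replicate 2, against 31.0% of all genes.

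**Figure D5:**
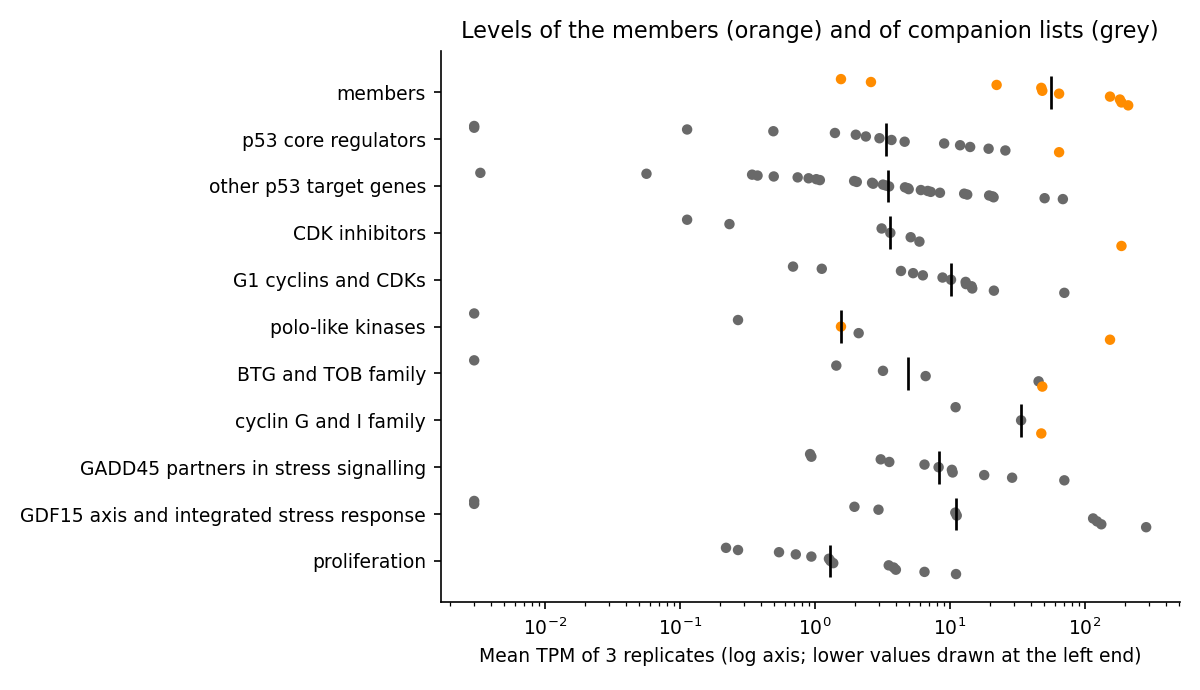
Mean TPM of 3 replicates on a log axis for the 10 genes (orange, also within their families) and the genes of 10 companion lists (grey), with a bar at each list's median and genes under the axis drawn at its left end. The p53 core regulators and other p53 targets lie mostly between 1 and 30 TPM, and Cdkn1a, Plk2 and Ccng1 are the highest of their families.

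Cdkn1a was by far the highest of the inhibitors of cyclin-dependent kinases. Of 7 such genes 5 reached 1 TPM, with a list median of 3.69 ± 0.823 TPM, and the lowest was Cdkn2a (0.113 ± 0.0379), which encodes p16 and p19ARF. The list of G1 genes held cyclins and their kinases but also other genes, Pcna among them. Of its 13 genes 11 reached 1 TPM, against 41.1% of protein-coding genes. Their median of 10.3 ± 2.56 TPM was near the 9.12 TPM of expressed protein-coding genes. The replication clamp Pcna (70.5 ± 14.4 TPM) and the kinase Cdk4 (21.2 ± 2.92) were the highest, and cyclin E2, Ccne2 (0.690 ± 0.113), was the lowest. Genes of proliferation were low: 8 of 13 reached 1 TPM, with a median of 1.25 ± 0.114 TPM, from Mki67 (11.1 TPM) down to Cdc20 (0.220 TPM). Mki67 was at 16.8, 4.74 and 11.8 TPM and, like Gadd45a, highest in replicate 1 and lowest in replicate 2. Most of its list did not share the low replicate 2. In CPM 2 of the 13 genes were lowest in replicate 2 and 10 in replicate 3, against 31.0% and 36.8% of all genes tested. Highest in replicate 1 were 8 and in replicate 2 were 5, against 34.4% and 31.4%.

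Within the families of the members, 1 or 2 genes carried most of the RNA. Of the 5 polo-like kinases 3 reached 1 TPM, and Plk2 was far above the others, with Plk5 listed at 0. Of the BTG and TOB family 5 of 6 did, with Btg2 (48.4 TPM) and Btg1 (45.5 ± 17.4) side by side and Btg4 listed at 0. All 3 cyclins of the G and I family did, from Ccng1 (47.6 TPM) through Ccni (33.8 ± 6.62) to Ccng2 (11.0 ± 3.86). Of 11 binding partners and kinases downstream of the Gadd45 proteins 9 did, with a median of 8.26 ± 1.52 TPM. The highest were Pcna and the p38 kinase Mapk14 (28.9 ± 2.12 TPM), and the lowest was the p38 activator Map2k6 (0.923 ± 0.315). Between replicates the partner list had a median ratio of 1.18, close to the 1.23 of all genes tested. None of the 11 reached 2-fold, against 6.86% of all genes, though Map2k6 was at 1.99. Of the 11, 8 differed beyond counting error, against 70.0% of all genes.

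The integrated stress response is a route by which Gdf15 is known to be switched on, through the factors Atf4 and Ddit3 (CHOP). The 10 genes of that list and of the Gdf15 receptor had a median of 11.1 ± 5.88 TPM (SD, n = 3), and 4 of them stood above 100 TPM. Ppp1r15a, which encodes GADD34, a phosphatase subunit that restores translation, had 363, 125 and 366 TPM (285 ± 138). Atf3 had 126, 67.7 and 204 TPM (133 ± 68.2), Ddit3 128, 72.3 and 169 (123 ± 48.6), and Atf4 130, 71.6 and 144 (115 ± 38.5). All 4 were lowest in replicate 2 in TPM, as were 80.0% of all genes tested, and also in CPM, as were 31.0%. Of the 10 listed genes 7 reached 1 TPM, and the 8 with enough reads all differed beyond counting error, as did 70.0% of all genes. Of those 8, in CPM, 7 were lowest in replicate 2, as were 31.0% of all genes, and 6 were highest in replicate 3, as were 34.2%. At least 2-fold differences were seen in 5 of the 8, against 6.86% of all genes. Their median ratio was 2.21, above that of the members (1.60) and of all genes (1.23). Chac1, an enzyme of glutathione breakdown, differed 3.99-fold, the pseudokinase gene Trib3 2.89-fold and the asparagine synthetase gene Asns 2.23-fold, all 3 named after their values were seen. In CPM, Gdf15 and Plk2 shared with Chac1, Trib3 and Asns the lowest value in replicate 2 and the highest in replicate 3. So did Cdkn1a, Plk3, Mdm2 and Gadd45b, though Plk3 did not differ beyond counting error. With total counts or rescaled TPM, Cdkn1a, Plk3 and Mdm2 were highest in replicate 1. Asns was close in replicates 1 and 3, at 34.4 and 35.3 CPM. The share of all genes with this joint order was not taken, and its cause was not tested. The genes of the Gdf15 receptor, Gfral and its partner Ret, were listed at 0 TPM.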

How the data were processed

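Ribosomal RNA was removed from 1 µg of cytosolic total RNA, and fragments of 250 to 400 bases were sequenced, in 3 replicates of 1 group, per the labels. Each library has 3 deposited tables, 1 of genes and 2 of transcripts. Expected counts (estimated reads per gene or transcript, not normalised) and TPM (taken over every indexed feature, short RNAs included) were deposited by the authors. Each transcript's percent of its gene's TPM and, as signal values, the posterior SD of a count and the credible bounds of TPM were deposited too. The mm10 assembly and GENCODE M21 annotation are named in notes deposited with the files. The layouts are those of RSEM (gene and first transcript table) and kallisto (second). No aligner, quantifier, version or strand setting is given by the sources used here.

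The table held 81881 entries. All 55536 Ensembl genes matched GENCODE M21, and other entries, 0.0785%, 0.0521% and 0.0251% of counts in replicates 1, 2 and 3, stayed out of library sizes and tests. A count of 0 allows up to 0.0625, 0.0551 and 0.0561 CPM (3 counts), for counting error only.

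Library sizes were scaled by TMM (edgeR 4.0.16, R 4.3.3) on rounded counts. Genes averaging at least 10 counts were tested for Poisson heterogeneity between replicates with Benjamini-Hochberg adjustment at 0.05, which sets the spread against counting error only. With 1 group no edgeR contrast exists, and an intercept-only edgeR fit gave the coefficient of variation. Departures used log2(CPM + 0.5) and differences between genes log2(TPM + 1). DESeq2 1.42.0 size factors, total counts, other minima, scales, tables and pseudocounts, and leaving out each replicate, were alternatives. Promoters came from RefSeq (GRCm38.p6), 3′ UTRs (of at least 100 bases) and coding sequences from GENCODE M21.

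Named are the 10 members, the genes of each companion list with a mean of at least 20 TPM and its highest and lowest, the 3 genes nearest the highest member, and leading transcripts with others of at least 10% in every replicate. Others are said to have been named after their values were seen. The members and the lists were chosen with earlier results of these data known.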

Additional observations from a re-analysis of the deposited data

How the results depend on the processing

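All 10 genes reached the minimum of 1 TPM also at 0.5 TPM, in rescaled TPM and without any 1 replicate, and 8 did at 5 TPM or in the second transcript table as deposited. From 8 to 9 genes differed beyond counting error under every library size, count filter and left-out replicate tried. That count is to be read against all genes tested, of which 70.0% did with DESeq2 size factors and 73.1% with total counts. Without replicates 1, 2 and 3 the shares of all genes were 53.8%, 52.8% and 49.8%. At a minimum of 5 TPM the counts were 6 of 16 p53 core regulators, 10 of 30 other p53 targets and 1 of 7 CDK inhibitors. They were also 1 of 5 polo-like kinases and 3 of 6 in the BTG and TOB family. The Gdf15 and stress response list had 4 of 10 and the proliferation list 1 of 13. No share of all protein-coding genes was taken at 5 TPM. Members highest in replicate 3 numbered 4 with total counts and 4 with TPM rescaled to protein-coding genes, against 7. Neighbouring pairs with separate ranges numbered 1 in gene sums of the second transcript table, and 3 to 5 when 1 replicate was left out, with 5 without replicate 2. The log2 difference of Gadd45b over Gadd45g was 6.05 with a pseudocount of 0.1 and 5.13 in the second table, against 5.62. With total counts or rescaled TPM, Cdkn1a, Plk3 and Mdm2 moved from highest in replicate 3 to highest in replicate 1. Without replicate 3 Gdf15 (143 TPM) fell below Cdkn1a (170.0) and Gadd45b (146), and without replicate 1 Ccng1 (45.2) passed Btg2 (43.0). No within-family difference changed sign. Of the main values under the alternatives, 106 kept within their limits and 13 moved. Of the other values, which were the TPM of members, the medians of lists and the shares of leading transcripts, 97 kept within their limits and 43 moved. The cause was not tested, except that a higher minimum leaves fewer genes and that the second table's TPM is shared over another total. Genes tested that differed beyond counting error made up 45.2% with no count filter and 76.9% for genes averaging at least 100 counts. No paired comparison of conditions was possible because the libraries form 1 group. Levels of Gadd45g and Plk3 rest on 120 to 272 reads a library, which limits their precision.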
